A study of Mus musculus with 12 samples.

Results

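Described here are the ADAM genes of sperm and the chaperones that fold their products, 10 genes that were chosen as a list: *Adam1a*, *Adam2*, *Adam3*, *Adam5*, *Adam18*, *Adam24*, *Adam32*, *Clgn*, *Calr3* and *Pdilt*. Every probeset of the array whose platform annotation named exactly 1 of these genes was taken, which gave 15 of the 45037 probesets tested. The 10 genes are among 18193 genes with a probeset of their own. A further 4 probesets named *Adam1a* together with *Mapkapk5* and were not used.

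Expression was measured in spermatogenic cells sorted by FACS from testes of 8 to 10 weeks old males of 2 inbred strains, PWD/Ph (PWD), derived from wild *M. m. musculus*, and C57BL/6J (B6), a laboratory strain. The 3 populations were prepachytene spermatocytes (LP, with leptotene, zygotene and early pachytene cells), pachytene spermatocytes (RP, mid-late pachytene and diplotene) and spermatids (ST). The 6 groups were PWD LP, B6 LP, PWD RP, B6 RP, PWD ST and B6 ST, each with 2 arrays from 2 animals, and no group carried a mutation or had been treated. Between 15 and 40 ng of RNA was amplified for each array, and depth has no counterpart here: the number of arrays limits the precision.

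ADAM proteins of sperm are membrane proteins with a disintegrin and a metalloprotease domain. ADAM1a and ADAM2 pair in the endoplasmic reticulum as fertilin, and ADAM3, also called cyritestin, is the ADAM of mouse sperm best known for its part in the passage of sperm into the oviduct and in their binding to the zona pellucida. These proteins are folded in germ cells with the help of calmegin, the product of *Clgn* and a relative of calnexin, of calsperin, the product of *Calr3* and a relative of calreticulin, and of PDILT, a relative of the protein disulfide isomerases. In mice that lack one of these chaperones, mature ADAM3 is missing from sperm.

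Of the 10 genes, 7 lie on Chr 8. *Adam18*, *Adam3*, *Adam5* and *Adam32* are consecutive coding genes there, followed by *Adam9*, an ADAM gene of many tissues. *Adam24*, whose neighbour is *Adam25*, and the chaperone genes *Calr3* and *Clgn* lie elsewhere on the same chromosome. *Adam2* is on Chr 14, *Pdilt* on Chr 7, and *Adam1a* on Chr 5 next to *Adam1b*. RefSeq sequence around the start of transcription, from 250 bases before to 50 bases after it in GRCm38.p6, was at hand for 3 of the 10 genes. The windows of *Calr3* and *Pdilt* are shown because both genes were highest in spermatids. The *Calr3* windows lie at chr8:72443729-72444028 and chr8:72435107-72435406 and the *Pdilt* window at chr7:119523433-119523732, all on the minus strand, and are written 5′ to 3′ along the gene. Capitals mark matches, on either strand, to 4 short motifs: TGACGTCA, the cyclic AMP response element, its first bases TGACG, the core AACTG of sites of MYB factors, and GTTGCC, part of the site of RFX factors.
Calr3, window 1: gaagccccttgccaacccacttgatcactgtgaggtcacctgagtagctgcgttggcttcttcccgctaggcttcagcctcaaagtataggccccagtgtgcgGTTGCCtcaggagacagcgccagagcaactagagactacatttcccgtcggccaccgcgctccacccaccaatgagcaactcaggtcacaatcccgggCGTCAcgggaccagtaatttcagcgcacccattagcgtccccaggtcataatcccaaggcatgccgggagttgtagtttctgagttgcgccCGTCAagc
Calr3, window 2: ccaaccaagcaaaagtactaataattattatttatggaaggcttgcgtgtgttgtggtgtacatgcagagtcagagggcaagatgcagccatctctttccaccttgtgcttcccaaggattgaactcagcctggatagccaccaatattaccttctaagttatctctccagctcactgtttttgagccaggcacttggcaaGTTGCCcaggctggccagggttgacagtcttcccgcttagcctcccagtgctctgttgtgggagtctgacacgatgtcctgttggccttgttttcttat
Pdilt: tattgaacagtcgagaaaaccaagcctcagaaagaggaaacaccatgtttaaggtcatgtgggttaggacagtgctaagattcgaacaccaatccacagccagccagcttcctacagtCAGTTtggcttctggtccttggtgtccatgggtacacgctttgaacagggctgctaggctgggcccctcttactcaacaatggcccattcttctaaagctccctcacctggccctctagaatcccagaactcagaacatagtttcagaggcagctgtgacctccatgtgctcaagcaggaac
In *Calr3* window 1 the letters of TGACG stood at 2 places on the minus strand, positions -49 to -45 and 43 to 47 from the start, and GTTGCC stood on the plus strand at -147 to -142. Window 2 held GTTGCC on the plus strand at -49 to -44. The *Pdilt* window held AACTG on the minus strand at -132 to -128. Among all 32851 windows of this length, TGACGTCA was found in 1.79%, TGACG in 20.8%, AACTG in 44.8% and GTTGCC in 12.5%, and the full element TGACGTCA was in none of the 3 windows printed. A match describes these letters and is no evidence of binding.

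All levels below are the log2 values that the authors deposited, GCRMA values according to the submitters' processing notes. A difference of 1 is a doubling, and levels of different probesets cannot be set against each other. Where a group was under the background level, a difference is given as a bound, with the dim arrays set to that level or to their own value if higher. A background level of 4.16 was taken from 45 probesets of genes of other organs, and 41.5% of all probesets had a mean above it. The fits with limma used all 12 arrays, and adjusted p-values come from Benjamini-Hochberg adjustment over the 45037 probesets within a comparison, with calls at 0.05. Replicate arrays correlated at 0.987 (PWD LP) to 0.996 (B6 RP), and p-values measure only the spread between such arrays. The markers of the 3 populations followed the labels in their mean levels. Single pachytene markers did not all do so. *Adad1* was 0.50 higher in ST than in RP (limma adjusted p = 0.00411), and *Ccna1*, *Spata16* and *Hspa2*, by their brightest probesets, did not pass that test. Besides, 1 feature touches several genes below. The 10 spermatid markers had a mean level per array of 11.34 to 11.78 in PWD LP and 10.58 to 10.71 in B6 LP, 9.31 to 9.98 in PWD RP and 9.37 to 9.49 in B6 RP, and 12.78 to 13.21 in PWD ST and 13.64 to 13.66 in B6 ST. LP arrays thus carried more spermatid message than RP arrays in both strains. Markers of Leydig cells and of peritubular and blood cells averaged 2.67 to 3.75 on every array, though single markers lay above background. Among them were *Acta2*, with a mean of 6.87 over the 12 arrays, and *Cyp17a1*, at 5.87 in PWD ST against 2.56 in B6 ST. In sorted populations, fewer cells of a type and less RNA per cell cannot be told apart.

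The 10 genes fell into 2 patterns plus 1 gene near the floor. *Adam2*, *Adam3*, *Adam5*, *Adam18*, *Adam32* and *Clgn* rose strongly at pachytene and stayed high in spermatids. In contrast, *Adam24* and, with both strains in the fit, *Pdilt* rose at both steps. *Calr3*, by its brightest probeset, rose into spermatids and did not pass the test into pachytene. *Adam1a* was below the background level on all 12 arrays. Over both strains, 11 of the 15 probesets were higher and 1 was lower in RP than in LP, where 44.3% and 24.6% of all probesets were, and their median difference was 2.81 against 0.07 over all probesets. The level of every gene on every array is plotted by population and strain.

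**Figure D1:**
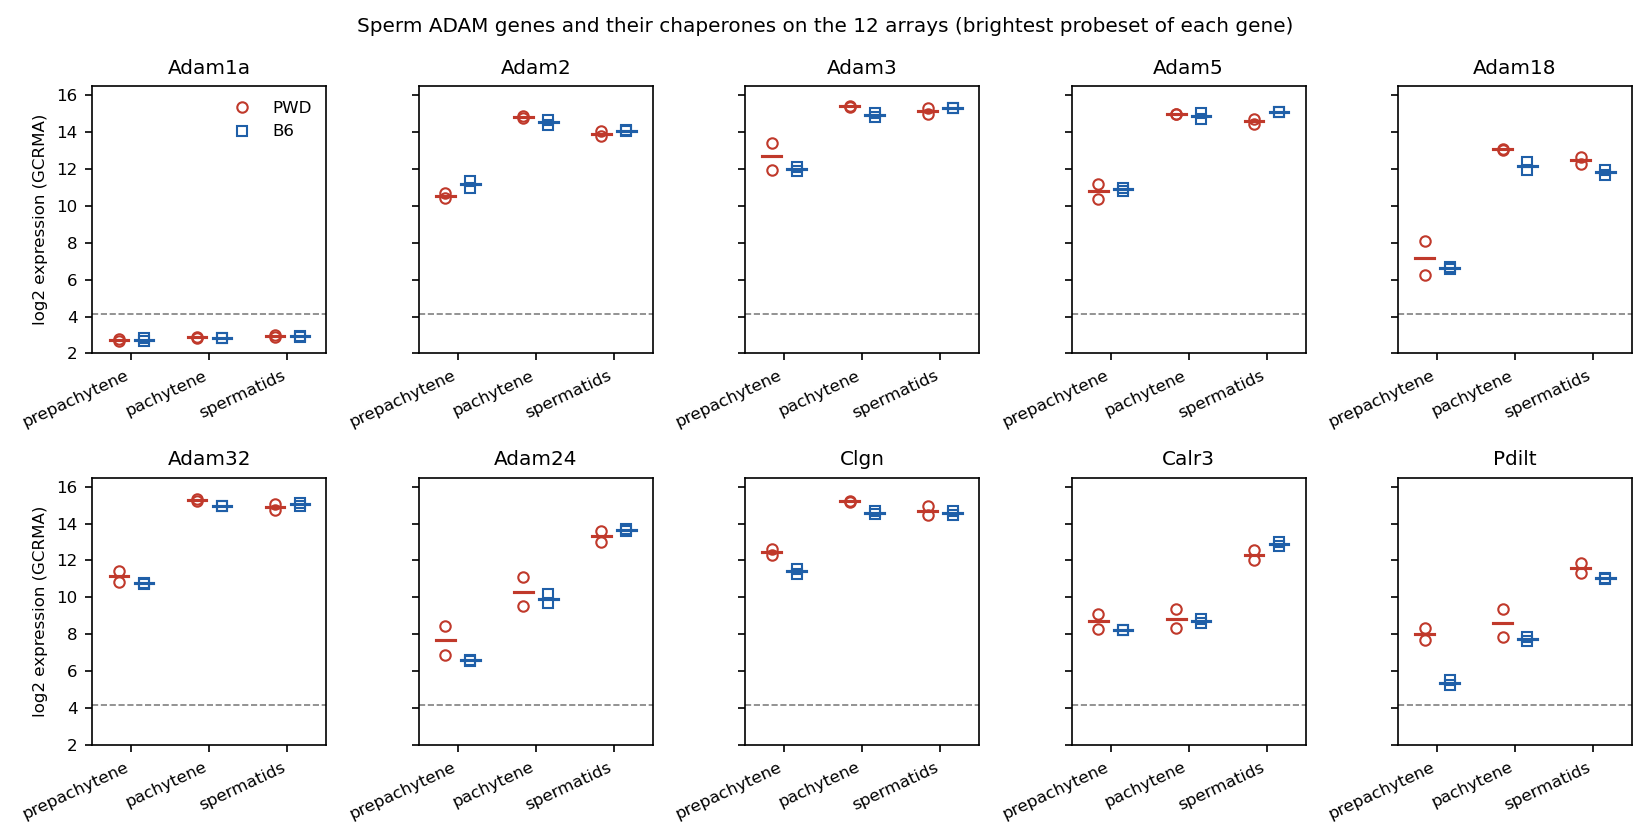
Log2 expression (vertical axis) of the brightest probeset of each of the 10 genes in prepachytene cells, pachytene cells and spermatids (horizontal axis). Each symbol is 1 array, circles PWD and squares B6, bars give the mean of each pair, and background (4.16) is dashed. By these probesets 6 genes reach their plateau in pachytene cells, while *Adam24*, *Calr3* and *Pdilt* are highest in spermatids.

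*Adam2* encodes fertilin beta. Its levels were 10.69 and 10.40 in PWD LP and 11.34 and 10.99 in B6 LP, 14.75 and 14.87 in PWD RP and 14.68 and 14.36 in B6 RP, and 13.79 and 14.03 in PWD ST and 14.05 and 14.11 in B6 ST. All RP arrays lay above all LP arrays, and all ST arrays lay between them. *Adam2* was 3.81 higher in RP than in LP (SE 0.12, limma adjusted p = 6.75e-08) and was the only one of the 6 plateau genes whose brightest probeset fell into spermatids, by 0.67 (SE 0.12, limma adjusted p = 0.00265). Within strains that step was -0.90 in PWD (limma adjusted p = 0.005) and -0.44 in B6 (limma adjusted p = 0.0933). This contrast turned with arrays quantile normalized again, where the step was -0.47 in PWD (limma adjusted p = 0.0636) and -0.52 in B6 (limma adjusted p = 0.0406), and B6 also passed with array weights (limma adjusted p = 0.0387).

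*Adam3* was above the background level on every LP array. The part of the spermatid message on LP arrays in this level was not tested. The gene measured 11.97 and 13.43 in PWD LP and 11.89 and 12.12 in B6 LP. In RP it measured 15.44 and 15.35 in PWD and 15.04 and 14.81 in B6. In spermatids it measured 14.99 and 15.31 in PWD and 15.30 and 15.31 in B6, within the range of the RP arrays. It was 2.81 higher in RP than in LP (SE 0.28, limma adjusted p = 4.59e-05). The difference of ST from RP was 0.07, with a 95% interval of -0.57 to 0.71.

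*Adam5* and *Adam32* are the next genes along the cluster, and both encode ADAM proteins made in the testis. *Adam5* measured 10.39 and 11.21 in PWD LP and 10.80 and 10.99 in B6 LP, 14.99 and 14.99 in PWD RP and 15.02 and 14.70 in B6 RP, and 14.44 and 14.73 in PWD ST and 15.07 and 15.09 in B6 ST. *Adam32* measured 10.84 and 11.46 in PWD LP and 10.72 and 10.80 in B6 LP, 15.32 and 15.24 in PWD RP and 14.98 and 14.96 in B6 RP, and 14.75 and 15.06 in PWD ST and 15.12 and 14.98 in B6 ST. For both genes every RP and ST array lay above every LP array, and RP and ST arrays overlapped. The rise into RP was 4.08 for *Adam5* (SE 0.17, limma adjusted p = 3.07e-07) and 4.17 for *Adam32* (SE 0.14, limma adjusted p = 8e-08). The step from RP to ST was -0.09 for *Adam5* (95% interval -0.49 to 0.31) and -0.14 for *Adam32* (95% interval -0.46 to 0.17).

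*Adam18*, the first gene of the cluster, had the largest rise into RP among the 15 probesets. It measured 6.27 and 8.07 in PWD LP and 6.66 and 6.56 in B6 LP, 13.11 and 13.05 in PWD RP and 12.38 and 11.95 in B6 RP, and 12.29 and 12.65 in PWD ST and 11.95 and 11.70 in B6 ST. The difference of RP from LP was 5.73 (SE 0.35, limma adjusted p = 2.23e-06), and the one of ST from RP was -0.48 (95% interval -1.28 to 0.32). Without PWD LP replicate 1 or replicate 2 this fall passed the test (limma adjusted p = 0.0334 and 0.0338), the value itself being the same. The 2 PWD LP arrays stood apart by more than the other pairs did. *Adam9*, which follows *Adam32* on the chromosome, had the opposite change. It measured 2.98 and 3.16 in PWD RP and 4.23 and 3.16 in B6 RP, against 8.91 and 9.25 in PWD LP and 10.22 and 10.30 in B6 LP, so that 3 of the 4 RP arrays were under the background level. It was lower in RP by at least 5.49 on the log2 scale (limma adjusted p = 1.71e-07).

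*Adam24* encodes testase 1. It measured 6.87 and 8.46 in PWD LP and 6.58 and 6.60 in B6 LP, 11.08 and 9.52 in PWD RP and 10.16 and 9.71 in B6 RP, and 13.02 and 13.60 in PWD ST and 13.61 and 13.70 in B6 ST. The 3 populations did not overlap. The rise was 2.99 into RP (SE 0.42, limma adjusted p = 0.000443) and 3.36 into ST (SE 0.42, limma adjusted p = 0.000367). Of its 2 PWD RP arrays, replicate 1 was higher in *Adam24*, and also in 7 of the 10 spermatid markers, with a median difference of 0.97. The part of these markers in the *Adam24* level was not tested.

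*Adam1a* encodes the partner of ADAM2 in the endoplasmic reticulum. Its single probeset, 1427791_a_at, lay between 2.67 and 2.98 on all 12 arrays and thus gave no level above background. The fit called it 0.19 higher in ST than in LP (SE 0.05, limma adjusted p = 0.00848), a difference within values under the background level. The neighbouring gene *Adam1b* was well measured: it had 10.73 and 10.84 in PWD RP and 10.39 and 10.25 in B6 RP, against 5.70 and 6.36 in PWD LP and 5.65 and 5.72 in B6 LP, a rise of 4.70 (SE 0.18, limma adjusted p = 1.84e-07).

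Among the chaperones, *Clgn* followed the plateau genes. By its brightest probeset, 1418617_x_at, it measured 12.60 and 12.32 in PWD LP and 11.54 and 11.29 in B6 LP, 15.18 and 15.23 in PWD RP and 14.68 and 14.50 in B6 RP, and 14.44 and 14.95 in PWD ST and 14.68 and 14.48 in B6 ST. It was 2.96 higher in RP than in LP (SE 0.13, limma adjusted p = 3.65e-07). The 2 other probesets gave 3.19 for 1430240_a_at and 2.51 for 1457829_at, both called. They differed in spermatids, where 1457829_at was lower than in RP (95% interval of the difference -2.05 to -0.94, limma adjusted p = 0.00139), while 1418617_x_at had a difference of -0.26 (95% interval -0.56 to 0.04), which was -0.39 and passed without PWD ST replicate 2 (limma adjusted p = 0.033).

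*Pdilt* rose at both steps with both strains in the fit, although its LP and RP arrays overlapped with either probeset. By its brightest probeset, 1431867_a_at, it measured 7.71 and 8.35 in PWD LP and 5.26 and 5.50 in B6 LP, 9.37 and 7.83 in PWD RP and 7.83 and 7.61 in B6 RP, and 11.33 and 11.87 in PWD ST and 11.06 and 10.99 in B6 ST. It was 1.46 higher in RP than in LP (SE 0.33, limma adjusted p = 0.0052) and 3.16 higher in ST than in RP (SE 0.33, limma adjusted p = 0.000123). The step into RP was 0.57 in PWD (limma adjusted p = 0.315) and 2.35 in B6 (limma adjusted p = 0.0039), and the difference of these steps, -1.78, did not pass the test (SE 0.66, limma adjusted p = 0.121). It was -2.55 and passed without PWD RP replicate 1 (limma adjusted p = 0.0125). Without PWD RP replicate 2 the step in PWD was 1.34 by 1431867_a_at and 1.85 by 1454033_at. These values rest on PWD RP replicate 1, which was higher than replicate 2 in 7 of the 10 spermatid markers (median difference 0.97). The part of these markers in the step was not tested.

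*Calr3* had its rise at the step into spermatids by its 2 brighter probesets. By 1453232_at it measured 8.29 and 9.10 in PWD LP and 8.21 and 8.23 in B6 LP, 9.37 and 8.33 in PWD RP and 8.84 and 8.63 in B6 RP, and 12.04 and 12.54 in PWD ST and 12.80 and 13.02 in B6 ST. All ST arrays lay above all others, and LP and RP arrays overlapped. The difference of ST from RP was 3.81 (SE 0.27, limma adjusted p = 1.56e-05), and the difference of RP from LP was 0.33 (95% interval -0.28 to 0.95, limma adjusted p = 0.287). With arrays centred on the probesets above background, the difference of RP from LP became 0.75 and passed (limma adjusted p = 0.0153). By 1453233_s_at this difference was 0.32 and did not pass (limma adjusted p = 0.252). It became 0.84 and passed with arrays quantile normalized again (limma adjusted p = 0.0134). With centring it was 0.74 and passed (limma adjusted p = 0.00905).

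The third *Calr3* probeset, 1431255_at, ran against the others. It measured 7.71 and 8.92 in PWD LP and 7.65 and 7.40 in B6 LP, 3.97 and 3.91 in PWD RP and 3.37 and 3.51 in B6 RP, and 5.56 and 6.10 in PWD ST and 4.88 and 4.26 in B6 ST. It was thus highest in prepachytene cells and under the background level on all 4 RP arrays. It was lower in RP than in LP by at least 3.76 on the log2 scale (limma adjusted p = 4.01e-06) and higher in ST than in RP by at least 1.04 (limma adjusted p = 0.00346). Which transcripts this probeset detects was not tested. All probesets of the 3 chaperone genes are plotted by array.

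**Figure D2:**
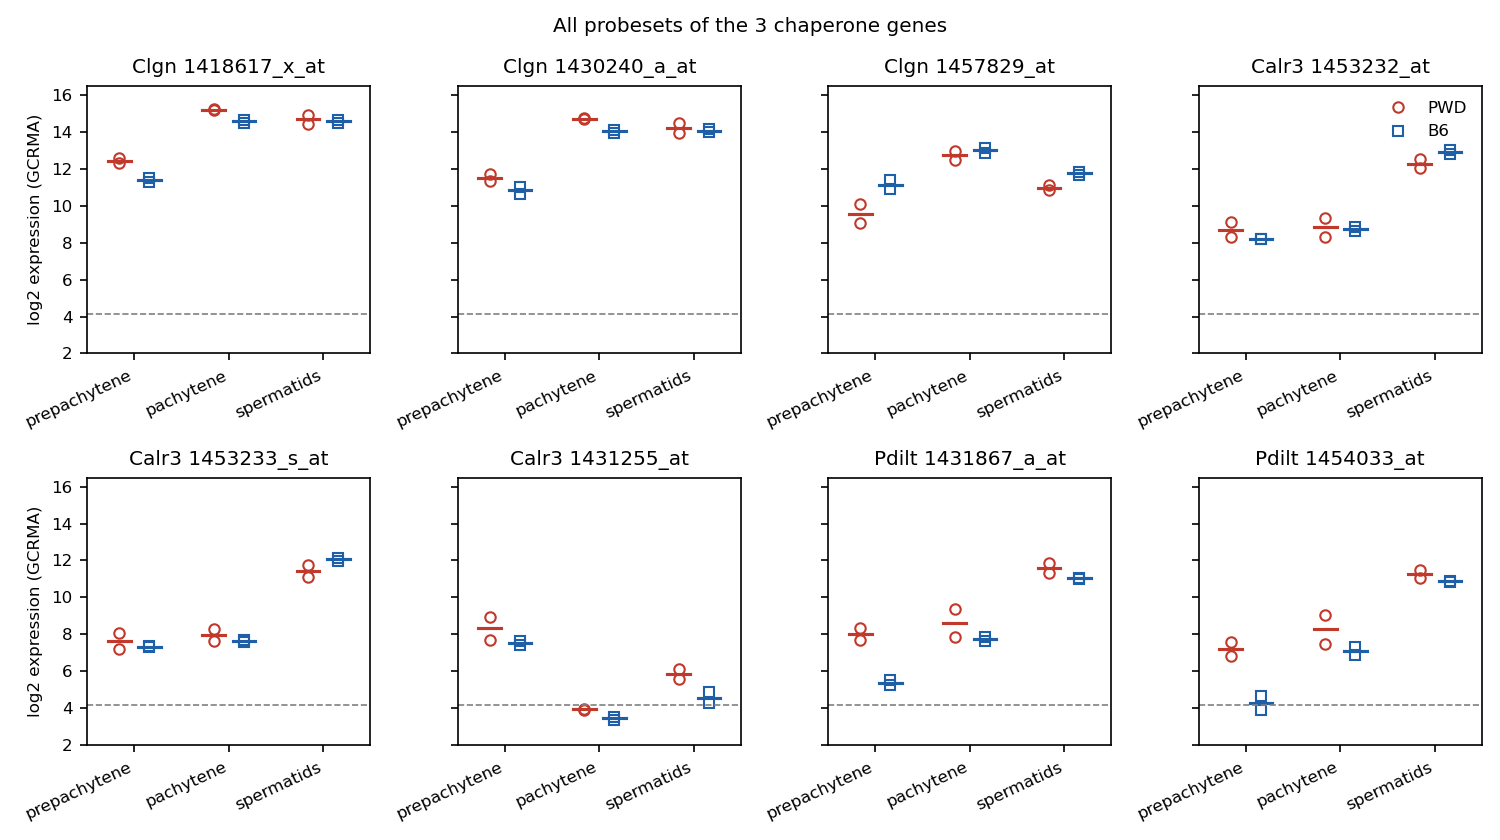
Log2 expression (vertical axis) of the 8 probesets of *Clgn*, *Calr3* and *Pdilt* in the 3 populations, 1 symbol per array, circles PWD and squares B6, bars the means of 2 arrays, background dashed. *Calr3* 1431255_at is highest in prepachytene cells, unlike the 2 other *Calr3* probesets, and *Clgn* 1457829_at is the only *Clgn* probeset that is lower in PWD than in B6 prepachytene cells.

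From RP to ST, 6 of the 15 probesets were higher and 2 were lower, where 12.1% and 18.4% of all probesets were. The 6 belonged to *Adam24*, *Calr3* and *Pdilt*, and the 2 were those of *Adam2* and *Clgn* 1457829_at. Between ST and LP all 15 probesets passed the test, 14 higher and 1 lower, where 48.3% and 27.9% of all probesets were, and the largest difference was 6.35 for *Adam24* (SE 0.42, limma adjusted p = 3.02e-06). Within strains, 10 of 15 probesets were called between RP and LP in PWD, where 61.7% of all probesets were, and 12 of 15 in B6, where 37.4% were. The 2 probesets of *Pdilt* made up this gap, and 1454033_at was called in PWD too with arrays quantile normalized again or centred. Between ST and RP, 8 of 15 were called in PWD, where 24.8% of all probesets were, and 6 of 15 in B6, where 26.1% were. The plot of the 2 steps separates the genes of the 2 patterns by their brightest probesets.

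**Figure D3:**
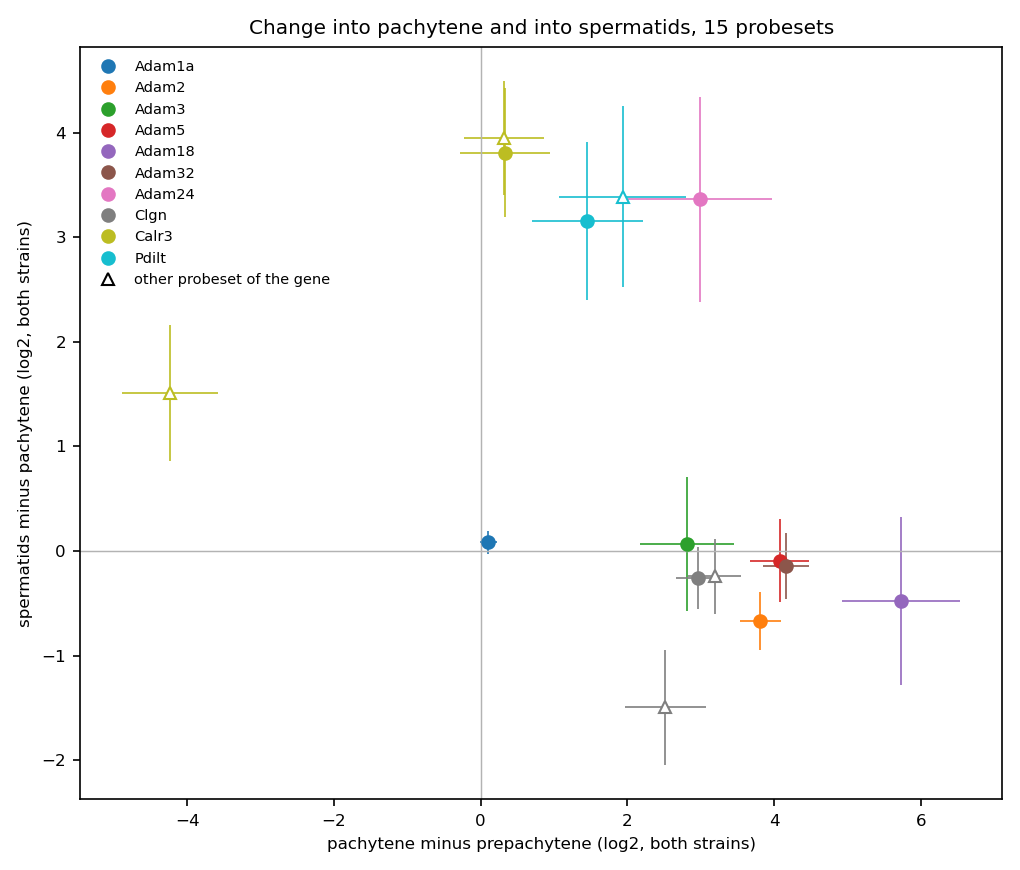
Difference of pachytene from prepachytene cells (horizontal axis, log2) against the difference of spermatids from pachytene cells (vertical axis, log2), both strains together, for the 15 probesets with 95% intervals; circles are brightest probesets and open triangles other probesets of the same gene, and *Calr3* 1431255_at, under background in pachytene cells, is drawn at its fitted difference. *Adam2*, *Adam3*, *Adam5*, *Adam18*, *Adam32* and *Clgn* lie at the lower right, and *Adam24*, *Pdilt* and the 2 brighter *Calr3* probesets at the top. *Calr3* 1431255_at, lower in pachytene than in prepachytene cells, lies apart from them at the left.

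The likeness of these profiles was described by Pearson's r between brightest probesets over the 12 arrays, which share the 3 populations, so that any 2 genes with steps at the same stages correlate. Among *Adam2*, *Adam3*, *Adam5*, *Adam18*, *Adam32* and *Clgn* r lay between 0.917 (*Adam2* and *Adam3*) and 0.995 (*Adam5* and *Adam32*). It was 0.914 for *Adam24* and *Calr3*, 0.942 for *Adam24* and *Pdilt* and 0.908 for *Calr3* and *Pdilt*. The lowest value was 0.399, for *Adam2* and *Calr3*. Over all genes above background, the 2 profiles most like that of *Adam2* were *Trpd52l3* (r = 0.997) and *Cln6* (0.996). For *Adam3* they were *Tnks* (0.993) and *Plaat1* (0.993), and for *Adam5* *Herc6* (0.998) and *Cmtm2a* (0.997), the last a gene needed for ADAM3 on sperm. *Adam18* was nearest to *Pfkp* (0.997) and *Slc22a18* (0.996), and *Adam32* to *Rnaseh2a* (0.999) and *Zpbp2* (0.998), a gene of the acrosome. *Clgn* was nearest to *Ptpdc1* (0.996) and *Slc9b1* (0.996). For the genes of spermatids, the nearest profiles were *Sgms2* (0.998) and *1700108F19Rik* (0.998) for *Adam24*, *Cabyr* (0.998), which encodes a calcium-binding protein of the sperm tail, and *Dpysl3* (0.997) for *Calr3*, and *4930562F07Rik* (0.995) and *4930451I11Rik* (0.995) for *Pdilt*.

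The strain comparison asked whether PWD and B6 cells of the same population differ in these genes. The clearest difference was in *Pdilt*, which was 2.65 higher in PWD than in B6 prepachytene cells by 1431867_a_at (SE 0.46, limma adjusted p = 0.00554). The second probeset, 1454033_at, measured 6.83 and 7.60 in PWD LP, against 4.67 and 3.88 in B6 LP, and was 2.94 higher (SE 0.53, limma adjusted p = 0.00634). Both PWD arrays lay above both B6 arrays with either probeset. Beside it, 4 of the 10 spermatid markers were higher in PWD LP and 0 were lower, where 11.9% and 6.72% of all probesets were. All 10 had a positive difference, with a median of 0.65. Of the 9 Sertoli cell markers, 3 were higher and 1 was lower, and their mean level per array was 8.61 to 8.97 in PWD LP and 7.37 to 7.92 in B6 LP. Of the pachytene markers, *Spata16* (1.56) and *Adad1* (0.73) were higher in PWD LP, and *Aurkc* (-3.98) and *Piwil1* (-2.26) were lower. The part of all these markers in the *Pdilt* difference was not tested. *Adam24* and *Calr3*, the other genes that are highest in spermatids, had differences of 1.08 (95% interval -0.31 to 2.46) and 0.48 (95% interval -0.39 to 1.35) in LP.

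In prepachytene cells 3 of the 15 probesets were higher and 2 were lower in PWD than in B6, where 11.9% and 6.72% of all probesets were. Besides *Pdilt*, *Clgn* was 1.04 higher by 1418617_x_at (SE 0.18, limma adjusted p = 0.00584), and *Adam2* was 0.62 lower (log2 difference -0.62, SE 0.17, limma adjusted p = 0.0381). The probesets of *Clgn* disagreed. By 1430240_a_at it measured 11.75 and 11.33 in PWD LP and 11.05 and 10.66 in B6 LP (difference 0.68, limma adjusted p = 0.0714), and by 1457829_at 10.08 and 9.06 in PWD LP and 11.38 and 10.93 in B6 LP (difference -1.59, SE 0.34, limma adjusted p = 0.0135). The call on 1418617_x_at was lost with array weights (limma adjusted p = 0.0561) and that on 1457829_at without B6 LP replicate 1 (limma adjusted p = 0.0857). No direction can therefore be given for *Clgn* as a gene. Because the probes were designed on a reference close to B6, hybridization to PWD transcripts may be reduced where their sequence differs, and the part of this in the values was not tested.

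The number of probesets called in prepachytene cells depended on single arrays. It was 9 without PWD LP replicate 1 and 3 without B6 LP replicate 1. Without PWD LP replicate 1, *Adam3* was 1.43 higher in PWD (limma adjusted p = 0.00127), *Adam18* 1.46 higher (limma adjusted p = 0.00509) and *Adam32* 0.69 higher (limma adjusted p = 0.0131). PWD LP replicate 1 was lower than replicate 2 in 10 of 10 spermatid markers (median difference -0.57) and 7 of 7 spermatogonia markers (-0.31). It was also lower in 6 of 8 prepachytene markers (median difference -0.52) and in 11 of the 15 probesets described here (-0.78). It was higher in 6 of 9 Sertoli cell markers (0.17) and in 2 of 7 pachytene markers (-0.09). Replicate 1 was also higher in 4 of 4 Leydig cell markers (0.04) and 4 of 6 peritubular and blood cell markers (0.06). These last lists averaged under the background level. The call on *Adam2* was lost under 9 of 21 alternatives, among them without PWD LP replicate 2 (limma adjusted p = 0.169) and without B6 LP replicate 1 (limma adjusted p = 0.196).

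In pachytene cells 0 of the 15 probesets passed the test between PWD and B6 with limma, where 12.8% of all probesets did, and 2 had an unadjusted p under 0.05, both of *Clgn*, with differences of 0.62 (1418617_x_at) and 0.69 (1430240_a_at). Both *Clgn* probesets passed with array weights (limma adjusted p = 0.0342 and 0.0347), with only probesets above background (0.0251 and 0.0273) and with the compared groups alone (0.0496 and 0.0464), and 1418617_x_at also without either PWD ST array (0.0304 each). *Pdilt* 1431867_a_at had a difference of 0.87 (95% interval -0.20 to 1.95), and *Adam18* one of 0.91 (95% interval -0.22 to 2.05), which passed without either PWD LP array (limma adjusted p = 0.0235 and 0.0238). Without PWD RP replicate 2, *Pdilt* was 1.65 higher in PWD. In PWD that value rests on replicate 1, which was higher in 7 of the 10 spermatid markers. In spermatids 0 of 15 passed with limma, where 11.9% of all probesets did, and 2 had an unadjusted p under 0.05. These were *Calr3* 1431255_at (difference 1.26, 95% interval 0.34 to 2.18, limma adjusted p = 0.0236 without either PWD LP array) and *Clgn* 1457829_at (difference -0.78, 95% interval -1.56 to -0.01). For *Adam3* in spermatids the interval was -1.06 to 0.75, for *Adam2* -0.55 to 0.23 and for *Pdilt* 1431867_a_at -0.50 to 1.65. The strain differences of all 15 probesets are plotted with their intervals.

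**Figure D4:**
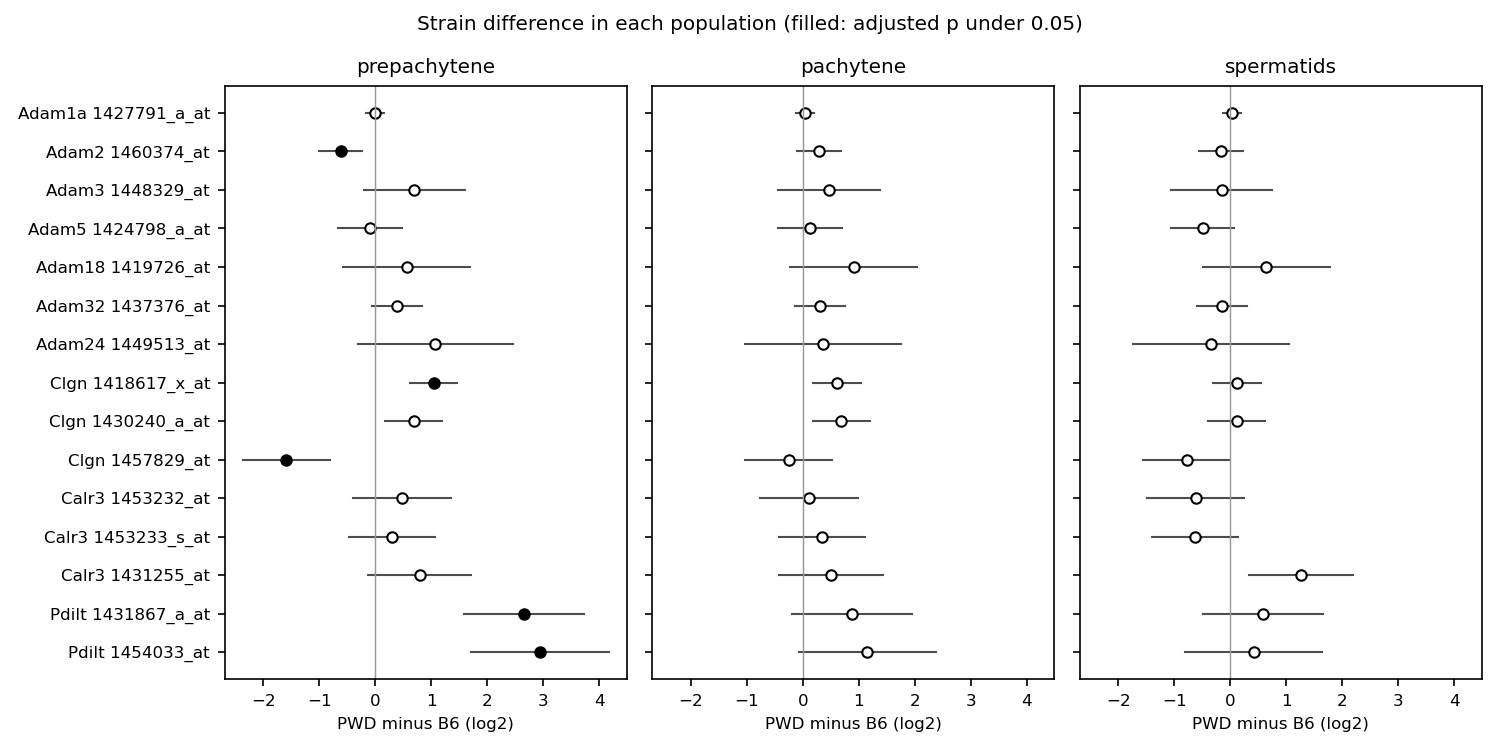
Difference of PWD from B6 (horizontal axis, log2) with its 95% interval in prepachytene cells, pachytene cells and spermatids for the 15 probesets (vertical axis), filled where the adjusted p was under 0.05. The 5 filled points are all in prepachytene cells: both of *Pdilt* and *Clgn* 1418617_x_at to the right, *Clgn* 1457829_at and *Adam2* to the left.

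Whether a strain difference depended on the population was tested over the 3 populations at once. None of the 15 probesets passed (limma, where 16.6% of all probesets did), and 4 had an unadjusted p under 0.05: those of *Adam2* (limma adjusted p = 0.075), *Clgn* 1418617_x_at (limma adjusted p = 0.0905) and *Pdilt* (limma adjusted p = 0.0994 and 0.0959). Without PWD LP replicate 1 the test called 3 probesets, and without either PWD RP array 2. By single steps, 1 of 15 probesets changed differently into pachytene in PWD and B6, where 11.7% of all probesets did, and 0 of 15 into spermatids, where 3.77% did (0 also at an unadjusted p under 0.05). The 1 was *Adam2*, which rose by 4.27 in PWD and by 3.36 in B6, a difference of 0.91 (SE 0.24, limma adjusted p = 0.0473), and this call was lost under 14 of 20 alternatives.

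The other ADAM genes of mouse testis, which were taken as a list of 14 genes of which 8 were measured, belonged mostly to the spermatid pattern. All 8 were higher in RP than in LP, where 44.3% of all probesets were, although *Adam4* had a mean under the background level. The leading genes were *Adam1b* (4.70), *Adam26a* (3.93), *Adam25* (2.58) and *Adam34* (2.48). From RP to ST 6 were higher, among them *Adam25* (3.87), *Adam6a* (3.63), *Adam34* (3.58) and *Adam26a* (3.42), and 1, *Adam1b*, was lower. Of all probesets, 12.1% were higher and 18.4% lower at that step. The fall of *Adam1b* (-0.57) did not pass under quantile normalization or centring. *Adam25*, the neighbour of *Adam24*, measured 11.30 and 11.88 in PWD ST and 12.05 and 12.06 in B6 ST, against 8.83 and 7.12 in PWD RP and 8.24 and 7.63 in B6 RP. Several of these genes have close copies, such as *Adam6a* and *Adam6b*, so that their probesets may share signal. Between strains, *Adam34* was 2.10 higher in PWD LP (SE 0.55, limma adjusted p = 0.0319). In RP or ST 0 of 8 passed, with 2 at an unadjusted p under 0.05 in each. Of all probesets, 12.8% passed in RP and 11.9% in ST.

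Of 12 ADAM genes of many tissues, 6 were higher and 3 were lower in RP than in LP, shares near those of all probesets (44.3% higher and 24.6% lower). Among the higher ones, *Adam12*, *Adam28* and *Adam33* were under the background level in their mean, and the number called was 5 to 11 over the alternatives. By fitted difference the leading genes were *Adam10*, a sheddase of Notch, *Adam9*, *Adam11* and *Adam17*, the sheddase of TNF. *Adam11* was 2.29 higher in RP and *Adam17* had a difference of -1.76. *Adam10* measured 3.97 and 3.48 in PWD RP and 3.39 and 3.49 in B6 RP, against 11.47 and 12.02 in PWD LP and 10.90 and 11.03 in B6 LP, and was lower in RP by at least 7.19 on the log2 scale (limma adjusted p = 1.58e-08). Into ST, *Adam17* fell by 1.48 and *Adam11* by 1.28. These 2 were the genes of this list called at that step, where 12.1% of all probesets were higher and 18.4% lower. With arrays centred, 7 genes of the list were called, 5 higher and 2 lower.

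Among 10 measured genes of 11 whose products are needed for ADAM3 on mouse sperm, 4 were higher and 3 were lower in RP than in LP, where 44.3% and 24.6% of all probesets were. *Cmtm2b* rose by 3.88 and *Cmtm2a* by 3.47, while *Rnase10* was above background in RP in B6 alone, and *Tex101*, which encodes a surface protein of germ cells, had a difference of -6.16. *Tex101* measured 8.61 and 9.31 in PWD RP and 9.09 and 9.48 in B6 RP, against 15.27 and 15.30 in PWD LP and 15.30 and 15.27 in B6 LP. Into ST, 3 were higher and 3 were lower, where 12.1% and 18.4% of all probesets were. The largest differences were those of *Prss37* (4.22), *Prss55* (3.85) and *Ace* (2.16), all encoding proteases or relatives of proteases, and *Tex101* (-2.53).

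*Rnase10*, which encodes a ribonuclease-like protein of the epididymis, differed between the strains. It was at 1.95 and 1.97 in PWD RP and 8.63 and 8.27 in B6 RP, and at 1.95 and 1.92 in PWD ST and 6.94 and 7.01 in B6 ST. All PWD arrays were below the background level, as were the B6 LP arrays with 1.85 and 1.89. It was lower in PWD by at least 4.29 on the log2 scale in RP (limma adjusted p = 2.65e-07) and by at least 2.81 in ST (limma adjusted p = 2.94e-07). Within strains it was higher in RP than in LP by at least 4.29 in B6 (limma adjusted p = 5.89e-08), whereas both populations were under background in PWD. It rests on 1 probeset, and whether PWD carries a sequence difference under its probes was not tested.

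Of 21 genes of general chaperones and folding enzymes of the endoplasmic reticulum, 5 were higher and 13 were lower in RP than in LP. Their median was -1.26, and 44.3% of all probesets were higher and 24.6% lower at this step. In ST, 1 was higher and 12 were lower than in RP, where 12.1% and 18.4% of all probesets were. The leading genes into RP were *Pdia5*, lower by at least 5.99 on the log2 scale, *Uggt1* (-5.33), the sensor of folding of glycoproteins, *Ero1a* (-3.72) and *Tmx1* (-3.16), and the largest differences into ST were *Sdf2l1* (-3.00), *P4hb* (-2.51), *Prkcsh* (-1.73) and *Uggt2* (-1.56). *Calr*, the somatic relative of *Calr3*, fell by 1.34 into RP (SE 0.13, limma adjusted p = 3.6e-05) and by 1.03 into ST (SE 0.13, limma adjusted p = 0.000325). *Canx*, the somatic relative of *Clgn*, fell by 1.56 into ST (SE 0.14, limma adjusted p = 5.38e-05). The 9 Sertoli cell markers averaged 4.78 to 4.99 in PWD RP and 4.59 to 4.66 in B6 RP. In LP they averaged 8.61 to 8.97 in PWD and 7.37 to 7.92 in B6. The 7 spermatogonia markers averaged 6.352 to 7.163 in PWD LP and 6.311 to 6.340 in B6 LP. In RP these averaged 2.845 to 2.880 in PWD and 2.705 to 2.726 in B6. The part of both marker lists in the falls of chaperones and ADAM genes of many tissues was not tested. The directions of the called genes of the 4 lists were the same with arrays quantile normalized again or centred. The genes of the lists are plotted beside the members.

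**Figure D5:**
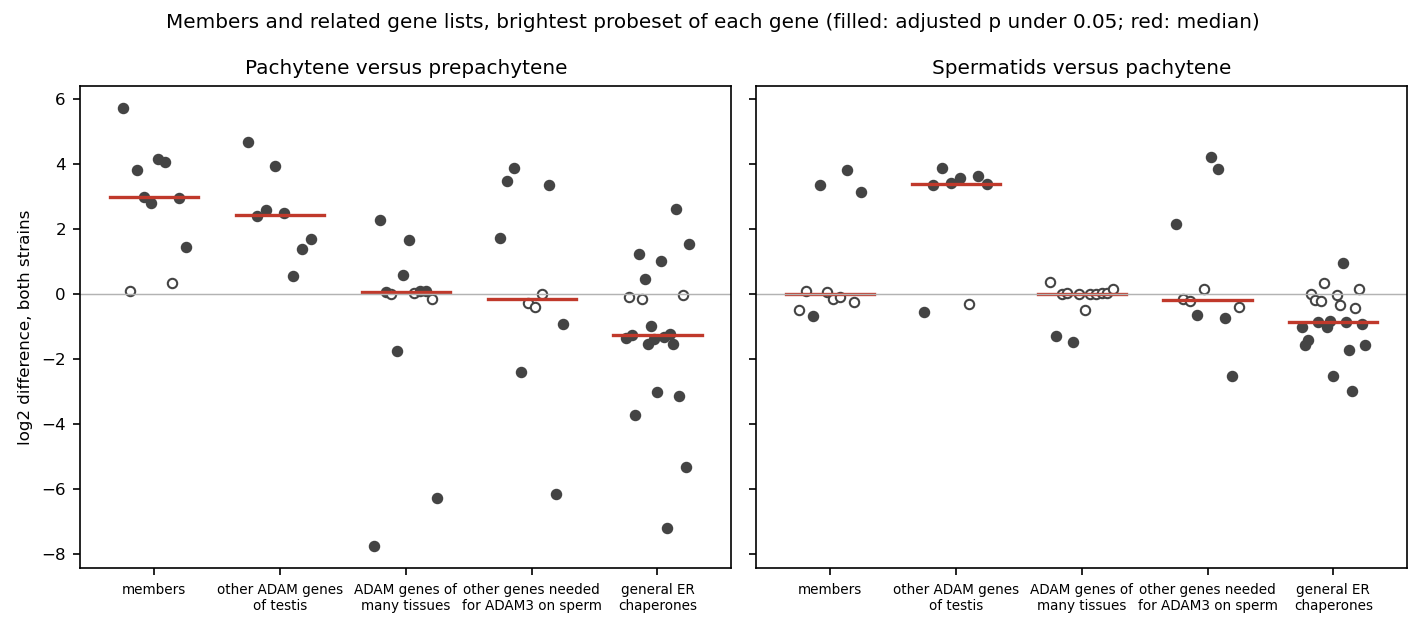
Log2 difference (vertical axis) of pachytene from prepachytene cells (left) and of spermatids from pachytene cells (right), both strains together, for the brightest probeset of each gene in the members and 4 related lists (horizontal axis); filled points had an adjusted p under 0.05, red bars are medians, and genes under background in 1 population are drawn at their fitted difference. The median of the members is 2.98 on the left and that of the general chaperones -1.26.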

How the data were processed

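The authors hybridized the 12 samples to Affymetrix mouse genome arrays and deposited 1 log2 value per standard probeset and array. The submitters' notes name GCRMA (version: not given in the sources used here), while the methods of the study name RMA, give another array design in that sentence than for the hybridization, and state other amounts of RNA. GCRMA corrects background by probe sequence and normalizes quantiles, which can hide differences in total RNA. Here, limma 3.58.1 (R 4.3.3) was fitted to 45037 probesets, without the 64 controls, with 6 group means, a prior of the variance that depends on the level, and Benjamini-Hochberg adjustment within each comparison. Plots were drawn with matplotlib 3.10.9 under Python 3.11.15, from tables made with numpy 2.4.6 and pandas 2.3.3. Of the probesets, 34945 named 1 gene, 932 several and 9160 none, by the platform annotation updated through RefSeq (204 not found). The script was tested on simulated data. The members and lists were chosen with earlier results of these data known. Named were all members, the 2 most like profiles of each, and the 4 largest called differences of a list. Neighbouring genes and other list genes (*Calr*, *Canx*, *Adam12*, *Adam28*, *Adam33*, *Adam1b* in spermatids) were named after their values were seen. Alternatives were quantile normalization again, centring, a filter at background, other variance priors, array weights, fewer arrays, replicate blocks and leaving out each array.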

Additional observations from a re-analysis of the deposited data

Results flagged for a closer look

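The change of *Adam2* from prepachytene to pachytene cells differed between the strains by the test of the difference itself: it rose by 4.27 in PWD and by 3.36 in B6, a difference of 0.91 (95% interval 0.36 to 1.46, limma adjusted p = 0.0473). In each strain both pachytene arrays were above both prepachytene arrays. The test over the 3 populations at once did not pass (limma adjusted p = 0.075). The call was lost under 14 of 20 alternatives, over which the difference ranged between 0.74 and 1.08 and the adjusted p between 0.00883 and 0.146. In prepachytene cells *Adam2* measured 10.69 and 10.40 in PWD and 11.34 and 10.99 in B6, and in pachytene cells 14.75 and 14.87 in PWD and 14.68 and 14.36 in B6.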

How the results depend on the processing

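The counts of called probesets between populations kept within 12 to 15 (pachytene versus prepachytene), 8 to 9 (spermatids versus pachytene) and 14 to 15 (spermatids versus prepachytene) under every alternative run, and no called difference of a member turned its sign. Over 4276 alternative values of single probesets, 41 lost and 65 gained a call. The strain comparisons were less stable. In prepachytene cells, 3 probesets were called with array weights and 3 with the compared groups alone in the fit, against 5, and 3 to 9 when 1 array was left out. In pachytene cells, 2 were called with only probesets above background, 2 with array weights and 2 with the compared groups only, against 0, and 0 to 2 when 1 array was left out. In spermatids, 1 was called with only probesets above background and 1 with array weights, against 0, and 0 to 1 with 1 array left out. For the dependence of the strain difference on the population, 1 was called after quantile normalization again, 1 after centring and 4 with only probesets above background, against 0, and 0 to 3 with 1 array left out. The cause was not tested, except that the filter leaves 18679 probesets to adjust over. Where a group is left with 1 array, that array is assumed to vary like the other groups. Centring moved the median of all probesets to 0.49 in pachytene versus prepachytene cells, 0.25 in spermatids versus pachytene cells, 0.74 in spermatids versus prepachytene cells and -0.29, -0.14 and -0.13 in PWD versus B6 prepachytene cells, pachytene cells and spermatids, so that differences near these sizes are relative to the scaling. Over all probesets, the calls in PWD versus B6 prepachytene cells numbered 8369, against 4688 with array weights, 4173 with the compared groups alone and 19793 after centring. In pachytene cells they numbered 5776, against 11259 with array weights and 2677 with the compared groups alone. In spermatids they numbered 5352, against 3252 with the compared groups alone, and between spermatids and pachytene cells 13757, against 30006 after centring. Counts of called genes of the 4 lists kept within 1.5 times in 436 of 504 alternatives.

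The labels link samples only by a replicate number, and they do not say whether it marks the same animal across populations. The correlations of replicate differences between groups lay between -0.24 and 0.08. Because the numbers may not follow the animals, these correlations cannot show whether animals were shared. With the replicate number as a block, 4 probesets instead of 5 were called in PWD versus B6 prepachytene cells, because *Adam2* was lost (limma adjusted p = 0.0511), and the other counts stayed at 12, 8, 15, 0, 0 and 0. With a replicate block by strain and number all counts were as without it.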
